A study of Mus musculus with 8 samples.

Results

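Star miRNAs are the strands of a miRNA hairpin that were named with an asterisk because fewer copies of them had been sequenced than of the other arm. They were taken here as the mouse probes of the array whose deposited name ends in an asterisk, with miR-149* and miR-3077* left out, which gave 327 of 1040 mouse probes. Of the other mouse probes, 711 carry no asterisk, and 273 of the star probes have a probe of exactly the same name without it, called the partner below. The arrays were made to compare cell populations of the thymus, the organ in which T cells mature and are tested against self. RNA came from 3 preparations of CD45+ cells (EpCAM- CD45+, mostly developing T cells in a thymus), 2 of cortical thymic epithelial cells (cTEC, sorted as CD45- EpCAM+ MHC II+ Ly51+) and 3 of medullary thymic epithelial cells (mTEC, sorted as CD45- EpCAM+ MHC II+ Ly51-). All were from untreated 4-week old female wildtype mice of the NOD strain, which is prone to autoimmune diabetes, and each preparation pooled the thymi of 10 to 12 mice. There was 1 array per preparation, hybridized with 1 dye.

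A miRNA gene is transcribed into a longer RNA that folds back on itself. Drosha and Dicer cut out the stem as a short duplex, and 1 strand of this duplex, the guide, is usually loaded into an Argonaute protein while the passenger strand is mostly degraded. Both strands of a duplex come from the same transcript in equal number, so their unequal levels in a cell arise after the hairpin has been made. A loaded miRNA finds target mRNAs mainly through its seed, bases 2 to 8, and both arms of a hairpin have different seeds. Some strands that were first named as passengers are the more abundant arm in some cells, and newer nomenclature therefore calls the arms 5p and 3p.

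The mature sequences of 282 of the 327 star miRNAs were found in RefSeq (GRCm38.p6). Those printed here carry the differences between cell populations described below, and their seeds are in capitals. First come strands with their highest signal in CD45+ cells, then strands that were highest on the cTEC arrays after scaling.
miR-140*: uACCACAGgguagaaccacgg
miR-17*: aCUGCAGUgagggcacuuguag
miR-106b*: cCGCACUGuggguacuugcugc
miR-181a-1*: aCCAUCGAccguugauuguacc
miR-3068*: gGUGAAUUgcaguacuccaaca
miR-677*: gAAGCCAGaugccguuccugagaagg
miR-211*: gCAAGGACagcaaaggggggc
miR-3102*: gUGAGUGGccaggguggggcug
miR-1934*: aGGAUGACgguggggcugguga
miR-346*: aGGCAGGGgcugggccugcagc
miR-92a-2*: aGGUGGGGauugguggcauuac
For miR-17* and miR-106b* the partner arms are shown too, because the partners share a seed while the star strands do not.
miR-17: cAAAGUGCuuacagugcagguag
miR-106b: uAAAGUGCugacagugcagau
On GRCm38.p6, miR-140* lies at chr8:107551288-107551308 on the plus strand within the span of Wwp2, miR-17* at chr14:115043721-115043742 on the plus strand, miR-106b* at chr5:138165746-138165767 on the minus strand within Mcm7, miR-181a-1* at chr1:137966508-137966529 on the plus strand and miR-3068* at chr12:87437685-87437706 on the minus strand within Alkbh1. miR-677* lies at chr10:128085335-128085360 on the plus strand within Atp5b, miR-211* at chr7:64205868-64205888 on the plus strand within Trpm1, miR-3102* at chr7:100882388-100882409 on the minus strand within Arhgef17, miR-1934* at chr11:69663092-69663113 on the plus strand, miR-346* at chr14:34894662-34894683 on the plus strand within Grid1 and miR-92a-2* at chrX:52741892-52741913 on the minus strand. Whether a hairpin is exonic or intronic in these genes was not looked up. miR-328* and miR-712*, which also appear below, are named only.
Among these 11 strands, miR-17* shares its seed with the array's miR-106a* and miR-20b*, and miR-181a-1* shares its seed with miR-181c*. None of these 3 was well above background on any array.

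Most star strands were not detected. A probe was taken as detected on an array when the scanner software called most of its 5 spots well above background. By this measure 248 of the 327 star probes (75.8%) were detected on no array, against 374 of the 711 other probes (52.6%). A further 42 (12.8%) were detected on exactly 1 array, 37 (11.3%) on at least 2 and 8 (2.45%) on all 8, where 55 of the other probes (7.74%) were detected on all 8. The 8 star strands seen everywhere were miR-211*, miR-328*, miR-677*, miR-712*, miR-1249*, miR-3068*, miR-3072* and miR-3102*.

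The arrays differed in how much they could see. Star probes detected numbered 20, 30 and 16 in CD45+ cells, 14 and 12 in cTECs, and 35, 41 and 43 in mTECs. The share of star probes detected was lower than that of the other probes on every array, for example 3.67% against 11.8% on cTEC replicate 2 and 13.1% against 39.4% on mTEC replicate 3. Signal was lowest on the cTEC arrays: the 75th percentile of the 65 mouse probes detected on all arrays was 2910 and 1364 there, and between 4213 and 11500 on the other 6. The cTEC arrays were therefore multiplied by 1.98 and 4.23 to bring them to a common level and the others by 0.502 to 1.37, and every scaled signal below is on that level. Because no probe under a scaled signal of 621.0 was well above background on cTEC replicate 2, values under it were set to this floor before the tests. Fitted fold changes against a population at the floor are too small for this reason, and signals measured on the more sensitive CD45+ and mTEC arrays under the floor are given below as values.

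**Figure D1:**
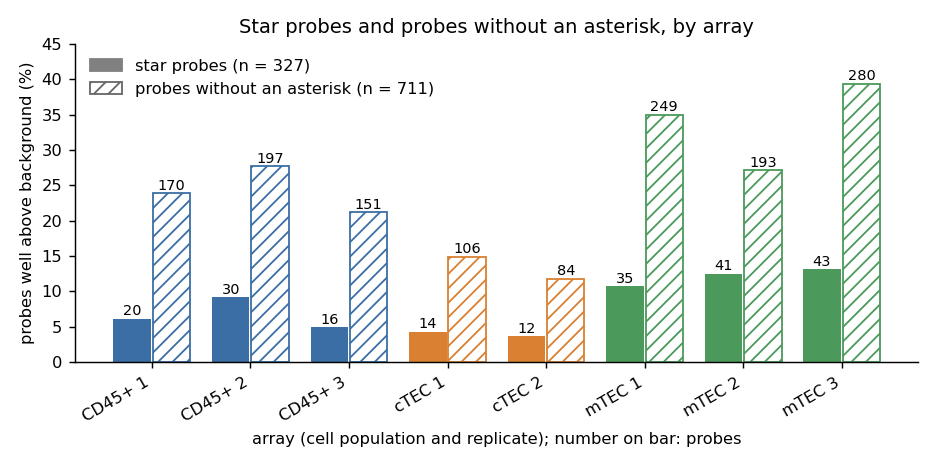
Share of star probes (filled bars, n = 327) and of probes without an asterisk (hatched bars, n = 711) that were detected on each array, in percent, with the number of probes on each bar. Star probes have the lower share on every array, from 3.67% on cTEC replicate 2 to 13.1% on mTEC replicate 3.

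The labels were checked against miRNAs that define cell types. The summed scaled signal of 6 haematopoietic miRNAs was 24300 to 28100 in CD45+ cells, 4130 to 5100 in cTECs and 3220 to 4620 in mTECs, and miR-142-3p, miR-142-5p and miR-223 were detected on no cTEC array. The sum of 7 epithelial miRNAs (miR-203, miR-205 and the miR-200 family) was 623 to 704 on CD45+ arrays, 4440 to 8620 on cTEC arrays and 36800 to 39100 on mTEC arrays, and on the cTEC arrays 3 of the 7 were detected on both and miR-203 and miR-429 on neither. Sums of the 2 endothelial miRNAs were highest on cTEC arrays at 1530 to 2760, against 212 to 295 and 497 to 550, and miR-126-5p was detected on no array. The 4 mesenchymal miRNAs summed to 170 to 283, 2200 to 5110 and 6240 to 6660 in CD45+ cells, cTECs and mTECs. The 2 erythroid miRNAs were detected on no CD45+ or cTEC array, and summed to 87 to 129, 198 to 940 and 116 to 228 in the same order. Scaled sums of undetected probes can thus be large on the cTEC arrays. The 3 muscle miRNAs summed to 170 to 202, 551 to 1650 and 443 to 708. Of these, 0 were detected on both cTEC arrays and 2 on every mTEC array, and miR-133a was detected on no CD45+ or cTEC array. The part of such cells in the differences below was not tested. In bulk samples of this kind, fewer cells of a type and less RNA per cell cannot be told apart.

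The question of which star strands differ between thymic populations could be tested for 37 of the 327, those detected on at least 2 arrays. They were fitted together with all other such miRNAs, 309 in all, and p-values were adjusted over the 309. In mTECs against CD45+ cells 4 star strands passed an adjusted p of 0.05 in limma, 1 higher and 3 lower, where 23.9% of all tested miRNAs passed (9.06% higher and 14.9% lower). In cTECs against CD45+ cells 8 passed, 6 higher and 2 lower, where the background was 30.7% (10.7% higher and 20.1% lower). In mTECs against cTECs 5 passed, all lower, where the background was 22.7% (16.2% higher in mTECs and 6.47% lower). Of the 132 partners that could be tested, 6 were higher and 40 lower in cTECs than in CD45+ cells, 41 were higher and 2 lower in mTECs than in cTECs, and 17 were higher and 30 lower in mTECs than in CD45+ cells. The splits of the star strands and of the partners both depended on the processing. With the lowest of the 8 arrays' limits as floor, 21 star strands were higher and 4 lower in cTECs than in CD45+ cells, beside 53 and 52 partners. With normexp background correction they were 28 and 1, beside 75 and 33 partners. In mTECs against cTECs normexp gave 0 higher and 27 lower, beside 37 and 54 partners. With the percentile taken over all mouse probes, 2 star strands were higher and 8 lower in cTECs than in CD45+ cells, beside 1 and 60 partners, and no star strand passed in mTECs against cTECs.

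With this scaling and floor the median log2 fold change was close to 0 in each of the 3 comparisons. A strand at the floor in both populations counts as 0 here, so these medians do not measure how far star strands differ. Without normalization the medians over all 226 such miRNAs were 0.002 in mTECs and -0.64 in cTECs against CD45+ cells, and 0.63 in mTECs against cTECs. With the scaling used here, the median over the 27 star strands with values above the floor was 0 in mTECs and 0.05 in cTECs against CD45+ cells. It was -0.06 in mTECs against cTECs, beside 0, 0.03 and -0.02 over all 226 miRNAs with values above the floor. The 17 calls belonged to 9 star strands. These were miR-140*, miR-17* and miR-3068*, lower in 1 or both epithelial populations than in CD45+ cells, and miR-211*, miR-328*, miR-712*, miR-1934*, miR-346* and miR-3102*, higher in cTECs. Counts of calls moved with the cTEC arrays. Without cTEC replicate 1, whose removal leaves the other cTEC array to vary like the remaining groups, 20 star strands passed in cTECs against CD45+ cells and 18 in mTECs against cTECs, and without cTEC replicate 2 they were 13 and 8. In mTECs against CD45+ cells 2 passed without CD45+ replicate 3, mTEC replicate 2 or mTEC replicate 3.

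Among the strands highest in CD45+ cells, miR-140* gave the most stable difference. Its hairpin lies within Wwp2, and the miR-140 gene is known for its role in cartilage. The scaled signal of miR-140* was 961, 987 and 848 in CD45+ cells, 95.6 and -8.11 in cTECs, and 204.98, 124.6 and 138 in mTECs. All CD45+ arrays lay above all epithelial arrays, both cTEC arrays and mTEC replicate 2 were not well above background, and the mean was 932 ± 73.9 (SD, n = 3) in CD45+ cells against 156 ± 43.1 (n = 3) in mTECs. The fitted log2 fold change was -0.58 ± 0.06 (SE) in mTECs against CD45+ cells (limma adjusted p = 4.82e-04) and -0.58 ± 0.06 in cTECs against CD45+ cells (adjusted p = 6.35e-04), both held back by the floor. Measured against each array's own detection limit, it was at least 2.02-fold higher in CD45+ cells than in cTECs, and at least 1.46-fold without cTEC replicate 1. Both calls passed under all 22 other settings, with log2 fold changes from -2.62 to -0.45 in mTECs.

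The partner miR-140 was also highest in CD45+ cells. Its scaled signal was 375, 440 and 368 in CD45+ cells, 56.6 and 285 in cTECs and 106.2, 120.1 and 113 in mTECs. It was well above background on the 3 CD45+ arrays and on 1 mTEC array, and since every value lies under the floor it had a fitted fold change of 0.

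Both miR-17* and miR-106b* come from clusters that promote proliferation, miR-17-92 and its paralog miR-106b-25 within Mcm7. The scaled signal of miR-17* was 626, 775 and 748 in CD45+ cells, 109 and 303 in cTECs, where it was not well above background, and 342, 314 and 363.3 in mTECs, where it was. The CD45+ arrays were again above all others. The fitted log2 fold change was -0.22 ± 0.06 in mTECs (limma adjusted p = 0.0323) and -0.22 ± 0.06 in cTECs (adjusted p = 0.0417) against CD45+ cells. The level of miR-17* was at least 1.55-fold higher in CD45+ cells than in cTECs, and at least 1.12-fold without cTEC replicate 1. The floor lies just under the CD45+ values of miR-17*, and each call was lost without any 1 of 6 arrays: CD45+ replicates 2 and 3, cTEC replicate 1 and each mTEC replicate, with adjusted p up to 0.183 in mTECs and 0.194 in cTECs. In all, the mTEC call passed in 12 and the cTEC call in 10 of 22 other settings, and both were lost, among others, with no filter (limma adjusted p = 0.114 and 0.145) and with the median of the spots (0.0907 and 0.116). With the lowest of the 8 arrays' limits as floor the mTEC change was -1.07 (adjusted p = 0.0285).

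The partner miR-17 had signals of 6533, 7206 and 6534 in CD45+ cells, 862 and 661 in cTECs and 1947, 1951 and 2150 in mTECs, and had log2 fold changes of -1.74 in mTECs and -3.12 in cTECs against CD45+ cells. miR-106b* was at 232, 214.5 and 178 in CD45+ cells, -123.0 and -4.68 in cTECs and 97.2, -1.86 and 70.8 in mTECs. It was detected on the 3 CD45+ arrays and on mTEC replicate 1, and lay under the floor on all arrays, so that its fitted fold change was 0. With the lowest floor miR-106b* passed as lower in mTECs (limma adjusted p = 0.00256), where 2 of the 3 arrays did not detect it. After scaling, the detection limits of both cTEC arrays lie above its CD45+ signals, so that cTECs cannot be compared on this scale. In cTECs miR-106b* passed as lower with the percentile over all mouse probes (-0.44, limma adjusted p = 0.0351), without normalization (-0.76, 0.0403) and in the deposited table (0.00486). It also passed with the median and the lowest of the arrays' limits as floor (0.0461 and 0.00246), and not with quantile normalization (0.278). Its partner miR-106b had log2 fold changes of -1.72 in mTECs and -2.85 in cTECs, both of which passed. The other star strand of this family that could be tested, miR-92a-2*, ran the other way and is described with the cTEC strands.

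miR-181a-1* is the star strand of miR-181a, a miRNA that tunes the sensitivity of the T cell receptor in developing T cells. It was detected on the 3 CD45+ arrays, at 249, 308 and 196, and on none of the 5 epithelial arrays, where its values were 31.9 and 88.4 in cTECs and 14.5, -27.1 and 36.6 in mTECs. It was the only star strand detected on every CD45+ array and on no cTEC or mTEC array. The level in CD45+ cells (251 ± 55.9, SD, n = 3) was at least 2.18-fold higher than in mTECs, and at least 1.67-fold without mTEC replicate 1. On this scale no fold can be given against cTECs because their detection limit was above it. All these values lie under the floor, where the fit gives no difference (adjusted p = 1 in both comparisons), and with the lowest floor miR-181a-1* passed as lower in mTECs (limma adjusted p = 3.4e-04). In cTECs miR-181a-1* passed as lower without normalization (-1.03, limma adjusted p = 0.0399), in the deposited table (4.1e-04) and with the median and the lowest floor (0.018 and 0.00232). It did not pass there with the percentile over all mouse probes (0.0511) or with quantile normalization (0.136). Its arm partner miR-181a was at 12428, 13724 and 13615 in CD45+ cells, 3615 and 961 in cTECs and 1251, 875 and 1033 in mTECs.

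miR-3068* and miR-677* were detected on all arrays and were also brightest in CD45+ cells. miR-3068* gave 1326, 1274 and 1264 in CD45+ cells, 670 and 1046 in cTECs and 822, 573 and 507 in mTECs, without overlap between CD45+ and epithelial arrays. It changed by -0.91 ± 0.18 on the log2 scale in mTECs against CD45+ cells (limma adjusted p = 0.0121) and by -0.61 ± 0.20 in cTECs (adjusted p = 0.0785). The cTEC change passed at -2.51 with the percentile over all mouse probes (0.0132), at -2.96 without normalization (0.00811) and in the deposited table (0.0162), and was -0.46 with quantile normalization (0.424). The mTEC call passed in 17 of 22 other settings. It was lost without cTEC replicate 2 or mTEC replicate 2, where its largest adjusted p was 0.118, without normalization (0.0646) and with both groups alone (0.196), among others. miR-677* gave 2104, 2142 and 2168 in CD45+ cells, 1051 and 1787 in cTECs and 1506, 1176 and 1373 in mTECs. Its log2 fold change was -0.67 ± 0.20 in mTECs and -0.64 ± 0.22 in cTECs, neither of which passed the test (adjusted p = 0.0648 and 0.0882). These too moved with the scaling: in cTECs the change of miR-677* was -2.52 with the percentile over all mouse probes (adjusted p = 0.00859) and -2.97 without normalization (0.00458), which passed, and -0.04 with quantile normalization and 0.11 in the deposited table, which did not. In mTECs it passed with the percentile over all mouse probes (-1.51, adjusted p = 0.0432). The partner miR-3068 was detected on 4 arrays with no value above 367.6, and miR-677 on none.

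After scaling, miR-211* was higher in cTECs than in both other populations. Its hairpin lies within Trpm1, a gene of melanocytes and retina. The scaled signal was 1678, 1889 and 1647 in CD45+ cells, 7572 and 7105 in cTECs and 2162, 2048 and 2458 in mTECs, with no overlap between the 3 populations. It was 2.08 ± 0.10 higher in cTECs than in CD45+ cells on the log2 scale (limma adjusted p = 1.85e-05), and lower in mTECs than in cTECs (a log2 fold change of -1.73 ± 0.10, adjusted p = 7.11e-05). The mTEC rise over CD45+ cells was 0.35 ± 0.09 (adjusted p = 0.0291) and passed in 9 of 22 other settings, being lost without CD45+ replicate 1 or 3 or mTEC replicate 1 or 3 (largest adjusted p 0.133), among others, and turning to -0.49 with the percentile over all mouse probes and to -0.21 without normalization. Before scaling, the signals of miR-211* were 3073, 3731 and 2374 in CD45+ cells, 3815 and 1678 in cTECs and 4306, 1494 and 2728 in mTECs, with all 3 populations overlapping. The difference thus depended on how the arrays were scaled. Both calls with cTECs passed in 20 of 22 other settings. Against CD45+ cells the cTEC change was 1.94 with quantile normalization (limma adjusted p = 3.25e-06) and 1.17 in the deposited table (7.2e-06). Without normalization the cTEC against CD45+ change of miR-211* was -0.25, and with the percentile taken over all mouse probes it was 0.21 (adjusted p = 1). The mTEC against cTEC change was 0.04 and -0.69 under these settings (adjusted p = 1 and 0.685).

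miR-328*, miR-712* and miR-3102* were also brightest on the cTEC arrays after scaling. miR-328* gave 1324, 1457 and 1305 in CD45+ cells, 4680 and 5128 in cTECs and 1482, 2603 and 3389 in mTECs, and rose by 1.85 ± 0.33 in cTECs against CD45+ cells (limma adjusted p = 0.0059). Its change of -1.06 in mTECs against cTECs did not pass (adjusted p = 0.0792). That change passed in the deposited table (-0.51, adjusted p = 0.039) and with the median and the lowest floor (0.0339 and 0.0413), and was 0.71 without normalization (0.31). The mTEC rise over CD45+ cells of 0.79 did not pass (0.13), and passed with quantile normalization (0.0441) and in the deposited table (0.0332). Without normalization it was 0.23 (0.676). miR-712* gave 657, 713 and 908, then 2182 and 2553, then 1045, 864 and 904 on the same arrays. It was 1.65 ± 0.16 higher in cTECs than in CD45+ cells (adjusted p = 4.15e-04) and changed by -1.33 ± 0.16 in mTECs against cTECs (adjusted p = 0.00183). miR-3102* gave 1159, 2280 and 1519 in CD45+ cells, 3091 and 4895 in cTECs and 1510, 1421 and 1357 in mTECs, with cTEC changes of 1.29 ± 0.32 against CD45+ cells (adjusted p = 0.0246) and -1.45 ± 0.32 for mTECs against cTECs (adjusted p = 0.021).
Both cTEC arrays lay above the other 6 for each of these strands. The calls against CD45+ cells passed in 20, 20 and 15 of 22 other settings for miR-328*, miR-712* and miR-3102*. In that order the changes were 1.81, 1.90 and 1.38 with quantile normalization (limma adjusted p = 0.00364, 8.43e-04 and 0.00329). In the deposited table they were 0.96, 0.82 and 0.77 (0.00138, 7.65e-05 and 5.74e-04). Each change against CD45+ cells turned negative without normalization, to -0.48 for miR-328*, -0.68 for miR-712* and -1.04 for miR-3102*, and the last 2 also turned with the percentile taken over all mouse probes (-0.22 and -0.58), as did miR-328* at -0.03. The mTEC against cTEC calls behaved likewise: without normalization they turned to 0.42 for miR-712* and 0.32 for miR-3102*, and with the percentile over all mouse probes both were lost (adjusted p = 0.998 and 0.847). For miR-3102*, the call against CD45+ cells was lost without CD45+ replicate 1 or 3 or mTEC replicate 2 (largest adjusted p 0.0799), and the call against mTECs without cTEC replicate 2 or mTEC replicate 2 or 3 (largest adjusted p 0.086).

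Of the cTEC strands, 2 rested less on the scaling, miR-1934* and miR-346*. The scaled signal of miR-1934* was 123, 139 and 139 in CD45+ cells, where it was well above background on 1, then 1341 and 2105 in cTECs and 400, 908 and 421 in mTECs, where it was well above background on all. Before scaling the values were 226, 274 and 200 in CD45+ cells, 676 and 497 in cTECs and 797, 662 and 468 in mTECs, so that every epithelial array lay above every CD45+ array on either scale. It rose by 1.43 ± 0.23 on the log2 scale in cTECs against CD45+ cells (limma adjusted p = 0.00351), and this call passed under all 22 other settings (0.98 to 3.67, largest adjusted p 0.0335). In mTECs against CD45+ cells the change of 0.16 ± 0.20 did not pass (adjusted p = 1), with 2 of the 3 mTEC values under the floor. It passed at 1.36 without normalization (adjusted p = 0.00938), at 0.92 with the percentile over all mouse probes (0.0209), with quantile normalization (0.0439) and with both lower floors (0.00163 and 0.00195). miR-1934* was lower in mTECs than in cTECs by a log2 fold change of -1.27 ± 0.23 (adjusted p = 0.00896), which turned to 0.09 without normalization and was lost with the percentile over all mouse probes (-0.64, adjusted p = 0.174) and, at a larger change of -1.49, without cTEC replicate 2 (adjusted p = 0.0966).

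miR-346*, from a hairpin within Grid1, was detected on no CD45+ array, at 41.5, 37.6 and 48.2, on both cTEC arrays at 1089 and 1637, and on mTEC replicates 1 and 3, the mTEC values being 262, 167 and 235. The unscaled values of miR-346* were 76.0, 74.2 and 69.5, then 549 and 387, then 521, 122 and 261, so that the epithelial arrays were above the CD45+ arrays before scaling too. Against the CD45+ detection limits the cTEC level was at least 12.2-fold higher with this scaling, at least 3.32-fold with the percentile over all mouse probes and at least 2.42-fold without normalization, and the fitted changes were 1.10 ± 0.16 in cTECs against CD45+ cells (limma adjusted p = 0.0023) and -1.10 ± 0.16 in mTECs against cTECs (adjusted p = 0.00319). The first was lost only without normalization, at 1.13 (adjusted p = 0.0698), and the second also with the percentile over all mouse probes, at -1.07 (adjusted p = 0.066).
miR-92a-2*, the star strand of the miR-92a copy on chromosome X, was at 67.3, 65.7 and 59.1 on the CD45+ arrays, where it was not well above background, at 604 and 955 in cTECs and at 220.98, 213.95 and 176 in mTECs. The unscaled values of miR-92a-2* were 123.3, 129.7 and 85.1, then 304 and 226, then 440.1, 156 and 195. Its cTEC level was at least 6.93-fold higher than in CD45+ cells with this scaling, at least 1.89-fold with the percentile over all mouse probes and at least 1.38-fold without normalization. The fitted change of 0.34 ± 0.14 did not pass with the CD45+ values at the floor (limma adjusted p = 0.146), and passed as higher in cTECs with quantile normalization (6.1e-06) and with the median and the lowest floor (6.28e-05 and 3.33e-05). The change did not pass without normalization (0.33, adjusted p = 0.59), with the percentile over all mouse probes (0.46, 0.158) or in the deposited table (0.18, 0.0508). The arm partner miR-92a, which its other copy also makes, had signals of 5776, 6163 and 5562 in CD45+ cells, 1333 and 1863 in cTECs and 1069, 1487 and 1514 in mTECs.

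**Figure D2:**
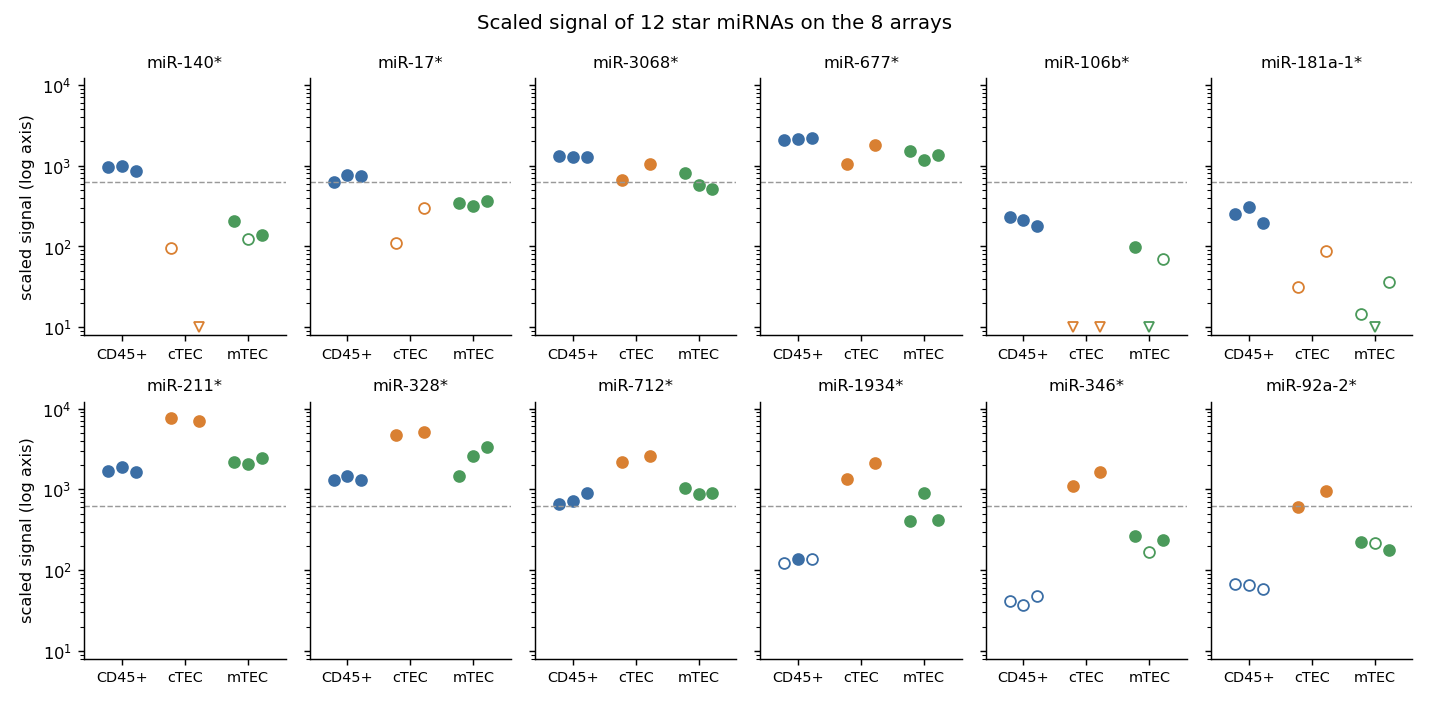
Scaled signal (log axis) of 12 star miRNAs on the 3 CD45+, 2 cTEC and 3 mTEC arrays, 1 point per array. Open symbols were not well above background, triangles at the lower edge stand for values under 10, and the dashed line is the floor of 621.0 used in the tests. In the upper row the CD45+ arrays are highest, from 178 for miR-106b* to 2168 for miR-677*, and in the lower row the cTEC arrays are, up to 7572 for miR-211*.

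**Figure D3:**
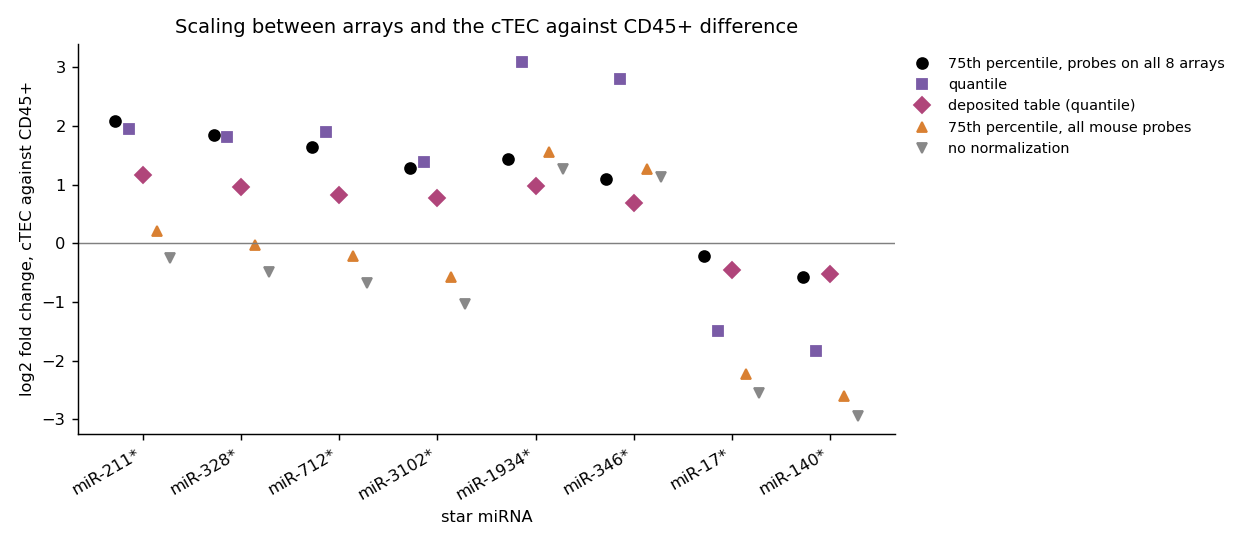
Log2 fold change in cTECs against CD45+ cells of the 8 star miRNAs called in that comparison, under 5 ways of scaling the arrays, 1 symbol each. miR-211*, miR-328*, miR-712* and miR-3102* cross 0 without normalization, while miR-1934* and miR-346* stay above 0 and miR-17* and miR-140* below it.

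The 11 strands detected on both cTEC arrays, which include the 8 detected on all arrays, were rich in G and C. Those with a sequence in RefSeq, 8 of the 11, had a median GC content of 65.2% (45.5% to 77.3%). It was 57.4% over the 28 with a sequence detected on at least 2 arrays, and 50% over all 282 with a sequence. It was 47.8% over the 220 detected on no array and 57.1% over the 7 detected on every CD45+ array and no cTEC array. GC content affects how strongly a probe binds, and its part in the cTEC signals was not tested. miR-346* and miR-3072*, both at 77.3%, were among them. miR-3072* comes from the Dlk1-Dio3 locus, within Mirg, and gave 211, 259 and 241 in CD45+ cells, 582 and 700 in cTECs and 213, 470 and 446 in mTECs, with no change passing the test at the floor of 621.0 (adjusted p 0.127 or more). With either lower floor miR-3072* was 1.43 higher in cTECs than in CD45+ cells on the log2 scale (adjusted p = 0.00772 and 0.00849), while without normalization the change was -0.72 (0.0704). miR-1249*, also on all arrays, gave 141.2, 183.3 and 176, then 593 and 1085, then 307, 295 and 366, and did not pass at that floor either (adjusted p 0.217 or more). With the lower floors miR-1249* was 2.26 and 2.27 higher in cTECs than in CD45+ cells (adjusted p = 2.37e-04 and 3.85e-04) and 0.95 and 0.96 higher in mTECs (0.019 and 0.0228), and without normalization its cTEC change was -0.07 (adjusted p = 1).

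The within-array difference between a star strand and its partner cancels the array's factor, and asks whether both arms of a hairpin change alike. Its size depends on how well each probe binds, so only differences between populations are read. Of 393 pairs of arms on the array, 273 of them star pairs, both probes were detected on every array of both populations in 3 pairs for mTECs against CD45+ cells and in 1 pair for each comparison with cTECs. miR-712 was the pair that could be followed in all 3. In mice the miR-712 arms are known to be cut from a spacer of the precursor of ribosomal RNA.
The log2 difference miR-712* minus miR-712 was -1.24, -0.90 and -0.93 in CD45+ cells, 0.45 and 0.52 in cTECs and -0.61, -0.65 and -0.65 in mTECs, with no overlap between populations. The star strand had thus shifted relative to its partner by 1.51 ± 0.10 (SE) in cTECs against CD45+ cells (limma adjusted p = 6.6e-06), by -1.13 ± 0.10 in mTECs against cTECs (adjusted p = 3.57e-05) and by 0.39 ± 0.09 in mTECs against CD45+ cells (adjusted p = 0.00867). The scaled signal of the partner was 1553, 1327 and 1730 in CD45+ cells, 1598 and 1784 in cTECs and 1599, 1351 and 1416 in mTECs. Before scaling, miR-712 gave 2844, 2622 and 2493 in CD45+ cells and 805 and 421 in cTECs, and miR-712* gave 1204, 1409 and 1309 and then 1099 and 603, so that which arm changed depends on the scaling. A single factor per array cancels in their difference, while quantile normalization and the deposited table gave smaller shifts in cTECs against CD45+ cells, 1.22 and 0.59. Unlike the fold change of miR-712* alone, both shifts that involve cTECs passed in all 20 settings, between 0.59 and 1.57 and between -1.26 and -0.61. The third passed in 16 of 20, between -0.04 and 0.45, and was lost with quantile normalization, the deposited table and both lower floors.

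For miR-17 the difference was -3.38, -3.22 and -3.13 in CD45+ cells and -2.51, -2.64 and -2.57 in mTECs, again without overlap, and miR-17* was not measurable in cTECs. The star strand had fallen less than its partner, by the difference between means of -3.24 ± 0.13 (SD, n = 3) and -2.57 ± 0.07 (n = 3). The fitted shift was 1.52 ± 0.09 (limma adjusted p = 1.06e-05), which is too large because miR-17* in mTECs was raised to the floor. It passed in 17 of 20 settings. Most of these kept the same floor rule and its excess, so the count does not measure how stable the shift is. With the median and the lowest of the arrays' limits as floor, where fewer values are raised, the shift was 0.67 and did not pass (adjusted p = 0.088 and 0.15), nor did it with quantile normalization (0.65, adjusted p = 0.222). The same shift of 0.67 passed with both groups alone (adjusted p = 0.00193), and shifts of 0.69 without normalization (0.0301) and 0.95 with normexp (0.0033) passed too. The third pair in that comparison, miR-669a-3p and miR-669a-5p, is not a star pair and lay mostly at the floor (-0.03, adjusted p = 0.294). With the lowest floor its shift was -1.01 (adjusted p = 0.0191). For miR-140 both arms were measurable in CD45+ cells (1.36, 1.17 and 1.20) and on mTEC replicate 1 (0.95).

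**Figure D4:**
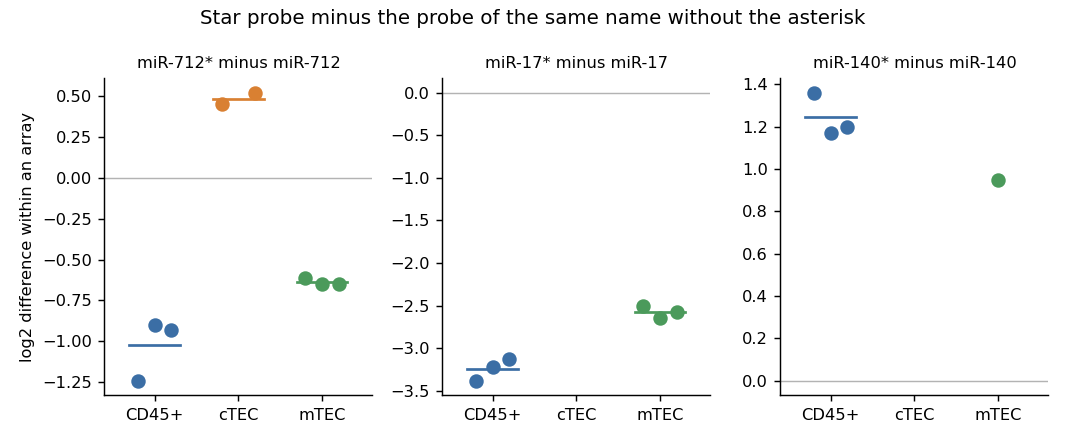
Log2 signal of the star probe minus that of its partner on each array where both were well above background, for miR-712, miR-17 and miR-140, 1 point per array with the population mean as a line (each panel has its own axis). The points of miR-712 lie at -1.24 to -0.90 in CD45+ cells, 0.45 to 0.52 in cTECs and -0.65 to -0.61 in mTECs.

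Detection of a star strand and of its partner often did not go together. Of the 273 partners, 156 (57.1%) were detected on at least 1 array and 132 (48.4%) on at least 2, where 79 of the 327 star probes (24.2%) were detected on at least 1. In 94 pairs (34.4%) the partner was on at least 2 arrays and the star strand on none, and in 13 pairs both were on at least 2. In 16 pairs the star strand was on at least 2 arrays and the partner on at most 1. Among those 16, miR-211*, miR-677* and miR-3072* were on all 8 arrays and their partners on none, and miR-328* and miR-3102* were on all 8 and their partners on mTEC replicate 2 alone, at 856 and 299.95. The probe of miR-346, detected likewise on mTEC replicate 2 alone, gave 1240 there, and its values were at most 58.7 on the other 7 arrays.

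mTEC replicate 2 stood apart in more star strands. Of the 42 detected on exactly 1 array, 22 were on mTEC replicate 2, 11 on mTEC replicate 3, 5 on mTEC replicate 1 and 4 on CD45+ replicate 2. The share of star probes detected on that array alone was 6.73%, against 3.52% of the other probes (25 of 711), while for mTEC replicate 3 the shares were 3.36% and 3.94%. These 22 had scaled signals from 305 to 1185 on it, with a median of 529, and none was above 86.3 on mTEC replicates 1 and 3. They included let-7d* (1185, against -12.4 and 0.8 on mTEC replicates 1 and 3), miR-3099* (968, against -39.4 and -36.6), miR-7a-2* (900, against -4 and -30.6) and miR-700* (814, against 8.1 and 34.6), which had the 4 highest signals there.

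In all, 44 star strands were detected on mTEC arrays and on no other, 38 of them on 1 array, 6 on 2 and 0 on all 3. These 44 are 13.5% of the star probes, beside 119 of the 711 other probes (16.7%), of which 64 were on 1 mTEC array, 38 on 2 and 17 on all 3. On CD45+ arrays alone there were 5 star probes (1.53%) and 8 others (1.13%), and on cTEC arrays alone 0 and 2. The number on mTEC arrays alone fell to 22 without mTEC replicate 2, and the number detected anywhere fell from 79 to 57. Of the 37 tested, 35 remained on at least 2 arrays without it. Strands on both mTEC replicates 1 and 3 and on no CD45+ or cTEC array were 5. They were miR-183*, the star strand of a miRNA known from sensory cells, at 119, 173 and 180.6 in mTECs, miR-30a* at 142.2, 204 and 141.5, miR-9* at 124, 199.4 and 140, miR-3103* at 105, 133.8 and 146.3 and miR-450a-2* at 68.9, 130 and 112. The scaled detection limits of the cTEC arrays, at 342 and 621, were above all of these, so that cTECs cannot be compared in them on this scale.

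**Figure D5:**
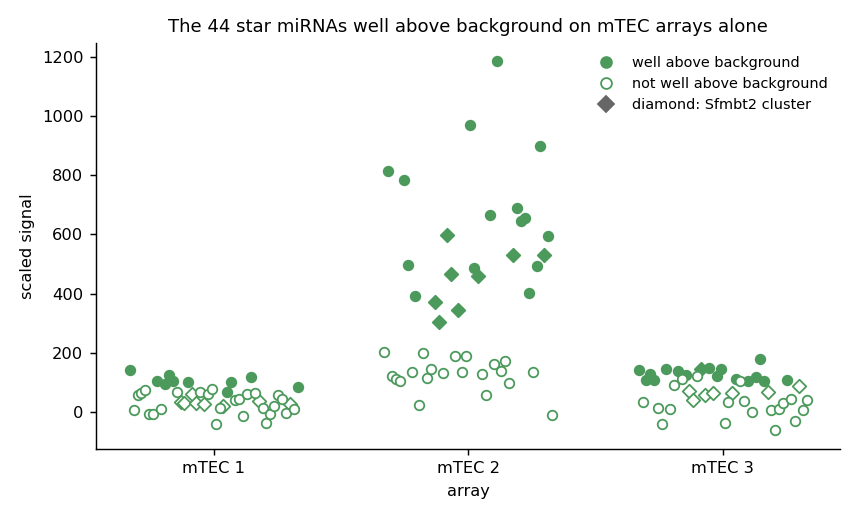
Scaled signal on the 3 mTEC arrays of the 44 star miRNAs that were well above background on mTEC arrays alone, filled where they were and open where they were not, with diamonds for the Sfmbt2 cluster. On mTEC replicate 2 a group of 23 filled points lies between 305 and 1185, and on the other mTEC arrays no filled point is above 180.6.

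By family, the star strands of the Sfmbt2 cluster were detected most widely. This cluster of near-identical miRNAs of the miR-297, miR-466, miR-467 and miR-669 families lies in an intron of Sfmbt2 on mouse chromosome 2. Of its 14 star probes 12 were detected on some array, but 12 were on mTEC replicate 2, 3 on mTEC replicate 3, 3 on CD45+ replicate 2, and 1 or none on each other array. Without mTEC replicate 2, 5 of the 14 were detected. The 5 that were tested (miR-467a*, miR-467d*, miR-669c*, miR-669k* and miR-669p*) did not pass in any comparison at the floor of 621.0. miR-669c* passed as higher in cTECs than in CD45+ cells with both lower floors (limma adjusted p = 0.00556 and 0.00689), as did miR-669c*, miR-669k* and miR-669p* with normexp (0.0337 or less) and miR-669c* and miR-669p* without cTEC replicate 1. miR-669c* gave 81, 56.9 and 81.6 in CD45+ cells, 413 and 661 in cTECs and 50.4, 438 and 210 in mTECs, where replicate 2 was far above replicate 1. Probes of such similar strands can bind each other's targets, so these are not separate measurements.

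In most other families few star strands could be tested, as over all 327, of which 11.3% were. Partners here include those found after dropping a locus number (let-7a for let-7a-1*). None of the 11 star strands of let-7 and miR-98 could be tested, where all 9 of their partners could. The same held for 4 star strands of miR-29 with all 3 partners tested, for 5 of the miR-125, miR-99, miR-100 and miR-10 group (4 of 5 partners) and for 8 of the mesenchymal and endothelial group (5 of 6 partners). Of 14 star strands of the miR-17-92 family, 3 were tested and 1, miR-17*, passed. Of the 14 in the lymphoid and immune group, with miR-181, miR-150, miR-155, miR-146, miR-15 and miR-16, only miR-181a-1* was detected on any array, where all 11 partners were tested. Of the 10 of the miR-200 family with miR-183, miR-96, miR-182, miR-203 and miR-205, the family that marks epithelial cells, 2 were detected, miR-141* and miR-183*, on mTEC arrays alone, where all 10 partners were tested. Of the 6 of miR-30, miR-30a* and miR-30e* were tested, and of the 6 of miR-23, miR-24 and miR-27, miR-24-2*, with no call. The list of the Dlk1-Dio3 locus had 31 star strands, of which 3 were detected on any array and none could be tested, with 2 of 31 partners tested. This list did not include miR-3072*, which was on all 8 arrays.

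The remaining named strands had few values to compare. miR-1247* was detected on every mTEC array at 282, 363.2 and 263, on CD45+ replicate 1 (154.96, 46.5 and 75.5 on the CD45+ arrays) and on no cTEC array (77.3 and 112). All these lie under the floor, and with the lowest floor miR-1247* passed as higher in mTECs than in CD45+ cells (limma adjusted p = 0.00555). Its scaled mean of 303 in mTECs is under the scaled detection limits of the cTEC arrays, so that no lower limit of the fold over cTECs can be given. With the median and the lowest floor miR-1247* passed as higher in mTECs than in cTECs (0.98 and 1.41, limma adjusted p = 0.0101 and 0.02). Without normalization it did not (0.73, adjusted p = 0.208). miR-504* was detected on every mTEC array at 126.4, 802 and 217.7, miR-32* at 67, 414 and 135.7, and among the mTEC arrays both were highest on replicate 2. miR-32* was also detected on cTEC replicate 2, at 724. With the median and the lowest floor miR-32* passed as higher in cTECs than in CD45+ cells (1.71 and 2.32, limma adjusted p = 0.0265 and 0.0183). So did miR-504* with the lowest floor (2.00, adjusted p = 0.0278), and neither passed there under another scaling. On the CD45+ arrays, where it was not well above background, miR-32* gave 81.8, 54.6 and 112.4, so that mTEC replicate 1 lay within the CD45+ values, and no difference was fitted (adjusted p = 1). miR-92b*, miR-24-2* and miR-3090* were detected on all 3 CD45+ arrays and 2 mTEC arrays each, with signals of 141.2 to 476 on CD45+ and mTEC arrays and no value above the floor. miR-3090* passed as lower than in CD45+ cells with the percentile over all mouse probes, quantile normalization and the deposited table, in mTECs (limma adjusted p = 0.0171, 0.0196 and 0.0474) and in cTECs (0.0161, 0.0235 and 0.0257), and not with the lower floors. miR-24-2* passed with that percentile in both (0.0334 and 0.0387) and in the deposited table in cTECs (0.0142). After scaling, the detection limit of cTEC replicate 2 was above the CD45+ signals of these strands. The 16 other tested strands, those of the Sfmbt2 cluster among them, gave between 68.9 and 596 where they were detected.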

How the data were processed

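The 8 arrays (Agilent custom UCSF miRNA v3.6, 1 color, 1 slide) carry 14834 spots that are not controls, 5 for each mouse probe. Per the file headers the scanner output, including spot intensity and the processed intensity after background subtraction, was made with Feature Extraction 10.7.3.1. The authors deposited it with a table of quantile normalized log2 intensity, whose names define the probes. That table's other columns hold the authors' comparisons and were not used. limma is named in the submitters' processing notes.

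The processed intensity was analysed with limma 3.58.1 (R 4.3.3). Outlier spots were left out. The 75th percentile of the 65 mouse probes that all 8 arrays detected served as each array's divisor, and values were brought back to the geometric mean of the percentiles. Scaled signals under 621.0 (9.28 on the log2 scale), the highest of the 8 arrays' lowest signals well above background, were set to it, and spots were averaged on the log2 scale. No spot was saturated, between 15.9% and 30.1% of spots were at or under 0 before the floor, and the number of arrays limits the precision.

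Tests covered the miRNAs detected, that is with most spots well above background, on at least 2 arrays (309, 37 of them star strands). 1 model of the 3 group means was fitted to all arrays with lmFit and eBayes (5 residual and 0.90 prior degrees of freedom), with Benjamini-Hochberg adjustment over the 309, of which 83 were at the floor on every array and entered as not different. Within-array differences between arms were fitted the same way, with the spread shared over 27 pairs and p adjusted over the pairs that passed the filter. An exact permutation test of 3 against 3 arrays cannot go below 0.1. Lower limits of fold used, for each array, the lowest signal it detected. The steps were tested on simulated data.

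The members, the lists and the rule for naming strands were chosen with earlier results of these data known. Named were star strands that passed in any comparison, that were detected on all 8 arrays, or that were detected on every array of 1 population and on none of another. Strands named beside these, from the lists and from mTEC replicate 2, were chosen after their values were seen. Replicates are pools of mice, with no statement that the pools of different populations are the same animals. Alternatives were other scalings, the deposited table, normexp with an offset of 50 on the median spot signal, other floors and filters, the median of the spots, each pair of groups alone, an intensity trend, blocks for replicate number and for slide row, and leaving out single arrays, with scaling, floor and filter computed anew. Sequences and positions are those of RefSeq for GRCm38.p6, matched to the probes.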

Additional observations from a re-analysis of the deposited data

How the results depend on the processing

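The calls of miR-140* in both epithelial populations and of miR-1934* in cTECs against CD45+ cells passed in all 22 alternatives. Of the 17 calls, 9 turned direction in at least 1, all under another scaling. In cTECs against CD45+ cells, the percentile over all mouse probes gave -0.58 for miR-3102*, -0.22 for miR-712* and -0.026 for miR-328*, and no normalization gave -1.04, -0.68 and -0.48, and -0.25 for miR-211*. In mTECs against cTECs no normalization gave 0.32 for miR-3102*, 0.42 for miR-712*, 0.09 for miR-1934* and 0.038 for miR-211*, and in mTECs against CD45+ cells miR-211* gave -0.49 with the percentile over all mouse probes and -0.21 without normalization. Those scalings moved the median over 226 miRNAs in cTECs against CD45+ cells by -0.85 and -1.25. The cause was not tested.

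Star calls in mTECs against CD45+ cells, 4 as reported, were 10 with the percentile over all mouse probes (1 higher, 9 lower), 9 with quantile normalization, 9 with normexp, 8 with the deposited table, 9 with the median floor, 11 with the lowest floor, 2 with no filter, 8 with the 2 groups alone (6 higher, 2 lower) and 2 with the slide row, and 2 to 4 with 1 array left out. In cTECs against CD45+ cells, 8 as reported, they were 29 with normexp (28 higher, 1 lower), 13 with the deposited table (6 higher, 7 lower), 21 with the median floor and 25 with the lowest, and 6 to 20 with 1 array left out. The 10 calls with the percentile over all mouse probes split into 2 higher and 8 lower, and the 9 without normalization into 1 and 8. In mTECs against cTECs, 5 as reported, they were 0 with the percentile over all mouse probes and 0 without normalization, 8 with quantile normalization, 27 with normexp, 8 with the deposited table, 14 with either other floor, and 4 to 18 with 1 array left out. Arm pairs that passed in mTECs against CD45+ cells, 2 as reported, were 1 with quantile normalization, 1 with the median floor, 1 with the lowest floor and 6 of 10 with a looser filter. The 1 pair was miR-669a-3p in each case, and the pairs of miR-17 and miR-712 were lost there. With all spots required, 33 star strands were detected on at least 2 arrays.

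Same-numbered arrays correlated between -0.23 and 0.28 in their deviations from the group means, and differently numbered arrays between -0.35 and 0.29. With 2 or 3 arrays per group such deviations constrain each other, so the check cannot decide whether the replicate number pairs the samples. With the replicate block 1 star strand passed in mTECs against CD45+ cells, 7 in cTECs against CD45+ cells and 5 in mTECs against cTECs, and 2, 1 and 1 arm pairs. The calls that did not pass with it, all against CD45+ cells, were those of miR-17* (limma adjusted p = 0.0753 in mTECs and 0.11 in cTECs), of miR-211* in mTECs (0.106) and of miR-3068* in mTECs (0.059). With the other 3 scalings of the arrays, the bounds for CD45+ cells over cTECs were 4.18-fold to 10.1-fold for miR-140* and 3.32-fold to 7.78-fold for miR-17*, and over mTECs 3.22-fold to 3.9-fold for miR-181a-1*. With 1 array left out, the bounds fell as low as 1.46-fold for miR-140*, 1.12-fold for miR-17* and 1.67-fold for miR-181a-1*.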
